A study of Aliger gigas with 7 samples.

Results

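Piwi and Boule are RNA-binding regulators of the germline, and each was represented by 1 gene title on the array used for queen conch ovary. The titles whose names contain Piwi or Boule were Piwi-like 1 and Bol, Boule-like, 2 of the 4328 titles in the deposited table. Both were measured in all 7 animals. A title names the protein that the authors attached to a conch sequence, so it stands for the closest match and not for an established conch orthologue.

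Piwi proteins belong to the Argonaute family. They carry piRNAs, small RNAs that guide the silencing of transposable elements in the germline, and in Drosophila and mouse their loss disturbs the making of eggs or sperm. Boule is the oldest member of the family that includes DAZ and DAZL. In Drosophila and mouse males it is needed for germ cells to complete meiosis or form sperm, and in the nematode the related protein is needed in egg formation. In Drosophila Boule promotes translation of the meiotic Cdc25 phosphatase, which activates the kinase Cdc2.

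The queen conch is a large marine snail, and all animals were wild, mature adults from the Florida Keys that had received no experimental treatment. The nearshore group was collected at Tingler Island, where reproduction is impaired, and held 3 animals. Its normal females were NF1 and NF3, and NM3 was an apparent imposex female, one that bears male sexual characters. The offshore group was collected at Pelican Shoal, where reproduction is normal, and held 4 normal females, OF1 to OF4. Each array held ovary RNA from 1 animal. Each group came from 1 place and the labels name no batch, so site and anything else that differed between the collections cannot be told apart.

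Array means lay between 5.83 and 5.89 on the log2 scale, and NM3 lacked a value for 45 titles. The table has no background signals or detection calls, and the number of animals limits the precision. Vitellogenin 2, the egg yolk precursor and the defining marker of a mature ovary, had log2 signals of 12.69 in NF1, 17.03 in NF3 and 16.35 in NM3, and of 16.81 to 17.34 in the offshore animals. It was bright in every animal and lowest in NF1. Its log2 difference, nearshore minus offshore, was -1.71 (limma adjusted p = 0.310). Names for egg yolk and oocyte coat matched 3 titles, Vitellogenin 2 included. The other 2, both named for CUB and zona pellucida-like domains, went the other way. They matched by a domain name, which does not establish an oocyte coat protein, and 1 is also titled Deleted In Malignant Brain Tumors 1. Their differences were 1.29 (limma adjusted p = 0.144) and 1.13 (limma adjusted p = 0.305). For all 3 titles the animals of the sites overlapped.

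The first question was whether the germline regulators differed between sites, and the 2 titles had mean differences in opposite directions. Piwi-like 1 had lower signal in all 3 nearshore ovaries than in any offshore ovary. Bol, Boule-like had higher signal in the normal females NF1 and NF3 than in any offshore ovary, while the imposex animal NM3 lay inside the offshore range. Neither difference passed an adjusted p of 0.05 in the limma test across all titles, so neither title is counted as changed. The same test called 400 titles changed, 9.24% of those tested. Unadjusted, both titles had a p under 0.05, as did 26.1% of all titles.

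Nearshore, the log2 signals of Piwi-like 1 were 11.55 (NF1), 13.47 (NF3) and 13.31 (NM3). The offshore animals OF1 to OF4 had 14.19, 15.06, 14.57 and 14.97. The sites did not overlap, with a gap of 0.73 between the highest nearshore and the lowest offshore animal. Of all titles, 24.4% had sites without overlap, and 13.5% had sites without overlap and lower nearshore values. NF1 lay far below the other nearshore animals, which were close to each other.

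The mean signal of Piwi-like 1 was 12.78 ± 1.06 (SD, n = 3) nearshore and 14.70 ± 0.40 (SD, n = 4) offshore. The log2 fold change was -1.92 (SE 0.50, 95% interval -3.10 to -0.75), equal to a 3.79-fold lower signal with an interval from 1.68-fold to 8.57-fold. Its limma p was 0.00582 and its adjusted p was 0.0580, place 434 of the 4328 titles by p. An exact two-sided permutation test of the group means gave p = 0.0286 for Piwi-like 1, the smallest value that 35 assignments can give. Where sites do not overlap, the observed assignment is always the most extreme in its direction, so this p adds little to the lack of overlap. Without any 1 offshore animal the permutation test gave p = 0.1, where 0.05 was the smallest possible. By size, 94.9% of all titles had a smaller difference between sites.

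The call on Piwi-like 1 lay at the edge of the threshold. Its adjusted p was 0.0491 with array weights, 0.0415 with a prior variance that depends on the mean, 0.0293 when that prior was robust, and 0.0414 without the 25% dimmest titles. In the 7 fits that left out 1 animal it passed in 0, with adjusted p from 0.0651 to 0.144. The size of the difference rested partly on NF1. Without NF1 the log2 fold change was -1.31 (SE 0.33), and without any other single animal it ran from -2.27 to -1.80. All 17 alternatives gave Piwi-like 1 a lower nearshore mean.

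**Figure D1:**
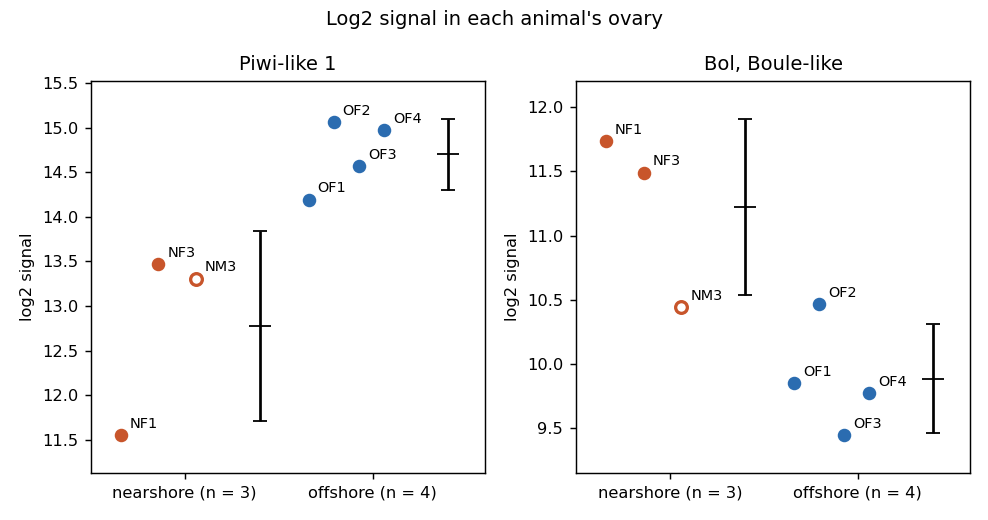
Log2 signal of Piwi-like 1 (left panel) and Bol, Boule-like (right panel) in each animal, nearshore in red and offshore in blue, with the group mean ± SD as black bars. The open circle is the imposex animal NM3. Piwi-like 1 lies between 11.55 and 13.47 nearshore and between 14.19 and 15.06 offshore, and for Bol, Boule-like NM3 at 10.44 lies just below OF2 at 10.46.

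Nearshore, the log2 signals of Bol, Boule-like were 11.74 (NF1), 11.49 (NF3) and 10.44 (NM3). The offshore animals OF1 to OF4 had 9.85, 10.46, 9.45 and 9.77. The sites overlapped by 1 pair of animals, since NM3 was 0.02 below OF2. NM3 lay 0.56 above the offshore mean, whereas NF1 and NF3 together lay 1.73 above it.

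The mean signal of Bol, Boule-like was 11.22 ± 0.69 (SD, n = 3) nearshore and 9.88 ± 0.42 (SD, n = 4) offshore. The log2 fold change was 1.34 (SE 0.39, 95% interval 0.42 to 2.26), a 2.53-fold higher signal with an interval from 1.34-fold to 4.79-fold. Its limma p was 0.0105 and its adjusted p was 0.0804, place 564 of the 4328 titles by p. In the exact two-sided permutation test, 3 of the 35 assignments gave a difference of means at least as large for Bol, Boule-like, p = 0.0857. By size, 85.5% of all titles had a smaller difference.

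Bol, Boule-like passed in 1 of the 17 alternatives. This was the fit without NM3, where the log2 difference was 1.73 (SE 0.34) at an adjusted p of 0.0410, and which compares the 2 normal nearshore females with the 4 offshore females. The 6 fits that left out 1 of the other animals gave 1.08 to 1.53, with adjusted p from 0.0836 to 0.194. One imposex animal was measured, so a difference between imposex and normal females could not be tested.

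**Figure D2:**
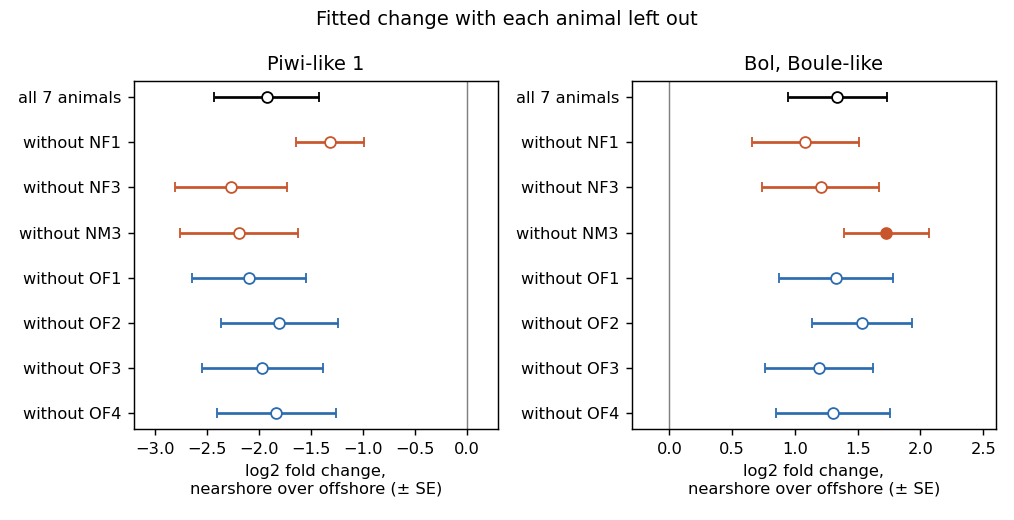
Fitted log2 fold change, nearshore over offshore, of Piwi-like 1 (left panel) and Bol, Boule-like (right panel), with all 7 animals and with each animal left out. Bars are ± SE, and a filled point has an adjusted p under 0.05. Only the fit of Bol, Boule-like without NM3, at 1.73, is filled, and Piwi-like 1 comes nearest to 0 without NF1, at -1.31.

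Neither title lay near the dim end of the table. Within an array, Piwi-like 1 was brighter than 89.9% of titles in NF1 and than 95.3% to 98.4% in the other animals. Bol, Boule-like was brighter than 81.3% (OF3) to 90.7% (NF1) of titles. Brightness also depends on the probe, so these places locate the signal on the scale and do not rank transcript abundance. Spread around the site means differed between the titles. The residual SD was 0.74 for Piwi-like 1 and 0.54 for Bol, Boule-like, and 72.2% and 51.6% of all titles had a smaller one. The median over all titles was 0.53.

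**Figure D3:**
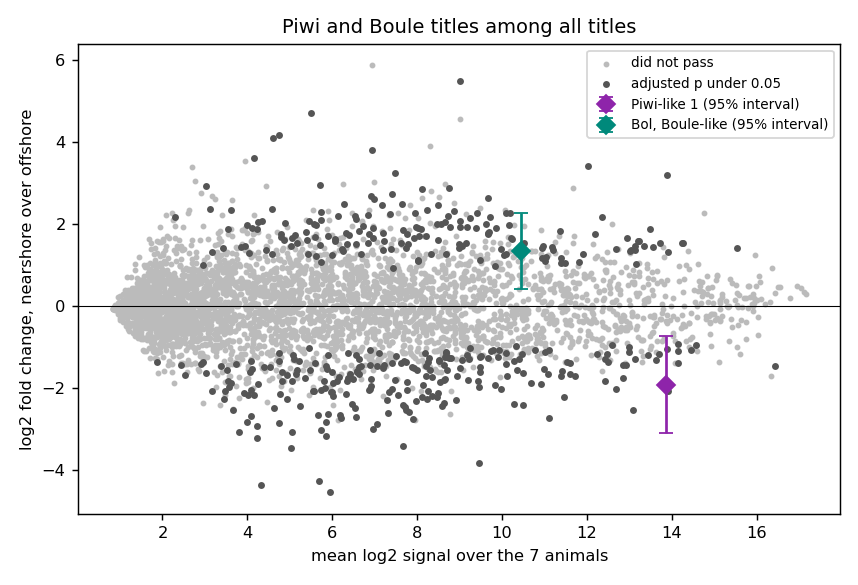
Log2 fold change, nearshore over offshore, against the mean log2 signal over the 7 animals for each title. Dark points passed an adjusted p of 0.05, and diamonds with 95% intervals are the Piwi and Boule titles. Piwi-like 1 at -1.92 and Bol, Boule-like at 1.34 lie on either side of 0 among bright titles, and both intervals stay on their side of 0.

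The 2 signals were also read against each other, as a restatement of the values above and with no test. Set relative to the offshore mean, the log2 difference of Piwi-like 1 minus Bol, Boule-like stood at -5.00 for NF1, -2.84 for NF3 and -1.95 for NM3. The offshore animals lay between -0.47 and 0.38. NF1, with the lowest Piwi-like 1 and the highest Bol, Boule-like, was the most extreme animal. Over the 7 animals the 2 titles had a Pearson r of -0.78 and a Spearman rho of -0.54, and after the site means were removed r was -0.30. These are descriptions of 7 points in 2 groups that share the arrays and their normalization. Of the other named titles, 6.07% had a lower r with Bol, Boule-like than Piwi-like 1 did.

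Markers of other cells were read beside these values. Whole ovaries were measured, so fewer cells of a type and less RNA per cell cannot be told apart. Names for sperm, testis or the axoneme matched 44 titles, of which 2 rose and 3 fell. Without strays, matches whose name belongs to another kind of protein, 2 of 33 rose and 1 fell. The strays that fell were Nuclear Autoantigenic Sperm Protein (-2.23, adjusted p = 0.0129) and Similar To Extraembryonic, Spermatogenesis, Homeobox 1-like (-2.42, adjusted p = 0.0439). The mean log2 signal of the 33 titles stood at 4.91 for NF1, 4.80 for NF3 and 4.37 for NM3, against 4.33 to 4.56 offshore. By this mean NF1 and NF3 lay above the offshore animals and NM3 among them. By the median over the same titles, relative to each title's offshore mean, only NF3 lay above, with 0.58, while NF1 had -0.03 and NM3 -0.19, against 0.02 to 0.13 offshore. The part of male germ cell or ciliated cell RNA in the Boule signal was not tested.

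The sperm and testis titles that passed, strays aside, did not share one pattern. Testis-specific Kinase 2, a protein kinase known from testis, rose by 2.07 (SE 0.51, adjusted p = 0.0473), with 11.25 in NF1, 9.86 in NF3 and 9.46 in NM3, and 7.41 to 8.80 offshore. The title for the dynein light chain Tctex-type 1, found in many cells, rose by 1.20 (SE 0.21, adjusted p = 0.0203). Testis-specific Serine Kinase 1, a kinase of maturing sperm in mammals, fell by 1.70 (SE 0.39, adjusted p = 0.0406) and was dim in every animal, at most 3.68. In the 7 fits without 1 animal, Testis-specific Kinase 2 passed only without NM3, Testis-specific Serine Kinase 1 only without NF3, and the Tctex title without NF3, NM3 or OF1.

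With strays left out, the mean over extracellular matrix titles and that over muscle titles were higher in every nearshore animal than in any offshore animal. Single titles went both ways. Of 11 matrix titles 9 had higher and 2 lower means nearshore, and of 17 muscle titles 14 had higher and 3 lower means. The mean log2 signal of 11 extracellular matrix titles was 7.05 to 7.53 in nearshore animals and 5.90 to 6.66 in offshore animals, and 3 of them rose and 0 fell. Without OF3 or OF4, 1 rose, and without any other single animal 2 did. That of 16 muscle titles with all 7 values was 6.27 to 6.53 in nearshore animals and 5.25 to 6.13 in offshore animals, and of all 17 such titles 2 rose and 0 fell. Without NM3 2 still passed, without OF2 1 did, and without any other single animal, or in the ordinary pooled-variance test, 0 did. These means and counts leave strays out, and the separation of the means is stated only for the lists without them. With strays, 3 of 15 matrix titles rose and 0 fell, and the list median was 0.30 against 1.40 without them. With strays, 3 of 24 muscle titles rose and 1 fell. Of all titles, 3.90% rose and 5.34% fell. The list means of digestive gland, haemocyte and nerve titles, strays left out, overlapped between sites, though single titles did not all overlap. Of 22 digestive gland titles 1 rose, 1 fell and 3 had sites without overlap. For 11 haemocyte titles these numbers were 1, 1 and 2, and for 12 nerve titles 1, 0 and 5. Sites without overlap were found for 24.4% of all titles. The digestive gland titles varied widely within sites. Their mean log2 signal ran from 4.54 (NF3) to 5.86 (NM3) nearshore and from 3.86 (OF4) to 5.98 (OF1) offshore. The part of a shift between germ cells and other tissue in the Piwi and Boule differences was not tested.

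The next question was whether genes that work with Piwi and Boule differed between sites. For comparison with lists matched by name, 169 of all 4328 titles rose (3.90%) and 231 fell (5.34%), and the median of all titles was -0.01. Mean signals were higher nearshore for 2139 of all titles and lower for 2189. The ordinary pooled-variance test called 143 of the 4328 titles changed, fewer than limma, so 0 passing in a short list says little about absence of change. Of 6 lists, that of meiotic and cell cycle titles had the lowest median. Of its 17 titles 13 had lower means nearshore, 2 fell and 0 rose, with a median of -1.01. Without the stray match the median was -1.03, and without NM3 as well it was -0.62. Of these 16 titles, 3 fell without NF3, 1 without NM3 and 0 without any other single animal. Their mean log2 signal per animal, over 15 titles after 1 stray match and 1 title with a missing value were left out, stood at 5.70 for NF1, 6.02 for NF3 and 5.02 for NM3. The offshore animals had 6.46 to 6.98.

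Cell Division Cycle 25C, the class of phosphatase whose Drosophila germline form is controlled by Boule, fell by 2.09 (SE 0.41, adjusted p = 0.0288). Its log2 signals were 4.13, 5.65 and 4.60 in NF1, NF3 and NM3, and 6.54 to 7.41 offshore, so no nearshore animal reached the offshore range. Cell Division Cycle 2, the M phase kinase that this phosphatase activates, fell by 4.29 (SE 0.87, adjusted p = 0.0304). NF1, NF3 and NM3 had 2.78, 5.50 and 1.44, and the offshore animals 7.22 to 8.17. Cell Division Cycle 2 was lowest in NM3, whereas Piwi-like 1 was lowest in NF1. In the fits without 1 animal, Cell Division Cycle 25C passed only without NF3, and Cell Division Cycle 2 only without NF3 or NM3. The mismatch repair title PMS2 Postmeiotic Segregation Increased 2 differed by -1.68 on the log2 scale (adjusted p = 0.0897).

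Titles of meiotic recombination were mixed. SPO11, the enzyme that makes the DNA breaks that start recombination, had a log2 fold change of 1.14, and the title for the strand exchange protein DMC1 had 0.65. Synaptonemal Complex Protein 3, a structural protein of paired chromosomes, had -0.58. None of these 3 passed, with adjusted p from 0.253 to 0.456.

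The names of RNA-binding proteins that control maternal or germline messages matched 12 titles, Bol, Boule-like included, of which 8 had higher means nearshore, 0 rose and 2 fell, with a median of 0.48. The titles Geminin, DNA Replication Inhibitor and SRY-box Containing Gene 11a were strays. Of the 10 titles without them 7 had higher means, 0 rose and 1 fell, with a median of 0.71. Without NM3 2 of the 10 rose and 1 fell, and without OF4 0 passed. Bicaudal C Homolog 1, an RNA-binding protein that silences messages in Drosophila oogenesis, fell by 2.06 (SE 0.32, adjusted p = 0.0173). It had 4.61 in NF1, 4.64 in NF3 and 4.45 in NM3, against 5.97 to 7.19 offshore, and the nearshore animals were nearly equal. It passed in each fit without 1 animal except that without OF4 (adjusted p = 0.0594). The stray Geminin, DNA Replication Inhibitor fell by 1.38 (SE 0.34, adjusted p = 0.0473), and it passed in 0 of the 7 fits without 1 animal.

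RNA-binding Protein Y14, a subunit of the exon junction complex, differed by 0.73 on the log2 scale (adjusted p = 0.140), and its partner Mago-nashi Homolog by -0.51, with no value in NM3 (adjusted p = 0.335). Cytoplasmic Polyadenylation Element Binding Protein 2 and 3, which control the poly(A) tails of stored messages, had 0.99 and 0.69, and neither passed. The CUG Triplet Repeat titles, relatives of the oocyte repressor Bruno, were looked up after the data were seen. CUG Triplet Repeat, RNA Binding Protein 1 fell by 1.28 (SE 0.29, adjusted p = 0.0394), with 7.08, 7.85 and 7.74 in NF1, NF3 and NM3, and 8.67 to 9.21 offshore. It passed in 0 of the 7 fits without 1 animal. Differences of -0.22 and -0.84 were found for the other 2 CUG titles, and neither passed.

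**Figure D4:**
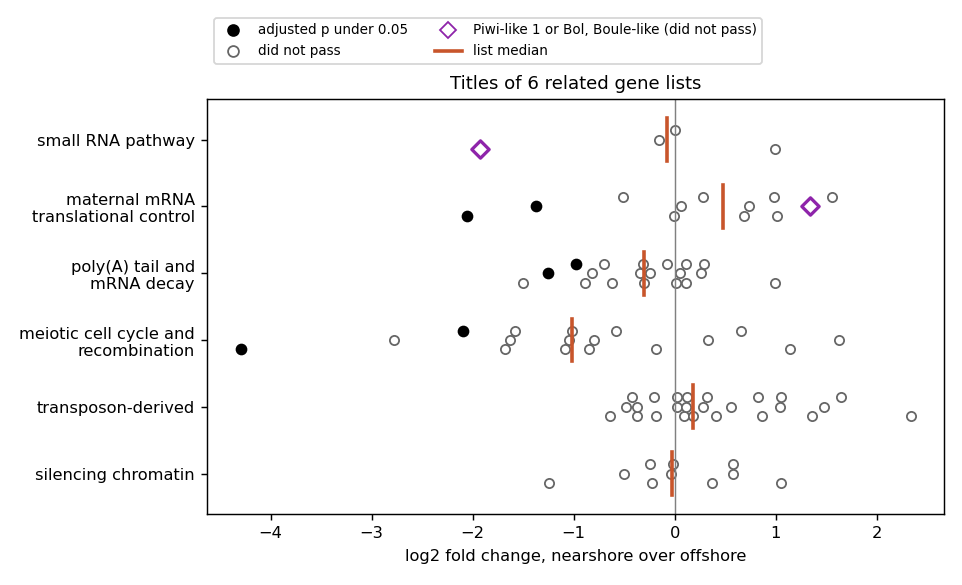
Log2 fold change, nearshore over offshore, of each title in 6 lists matched by name. Filled circles passed an adjusted p of 0.05, open circles did not, diamonds are Piwi-like 1 and Bol, Boule-like, and red bars are list medians. All 6 filled titles lie below 0, and the list of meiotic cell cycle and recombination has the lowest median, -1.01.

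The small RNA pathway was thinly represented. Besides Piwi-like 1 the pattern found Dicer1, Dcr-1 Homolog and the plant-named DCL1; ATP-dependent Helicase/ Ribonuclease III, both for enzymes that cut small RNA precursors, and 1 stray title. Dicer1 stood between 1.03 and 1.22 in all 7 animals, close to the lowest value of the table, 0.27, so a difference may not be measurable there. The DCL1 title had 2.20, 3.89 and 2.87 in NF1, NF3 and NM3, and 1.31 to 2.78 offshore (adjusted p = 0.256). Of the 4 titles 0 passed in limma and 1, Piwi-like 1, had an unadjusted p under 0.05. Without the stray, 0 of 3 passed in the ordinary pooled-variance test.

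Transposable elements are the main targets of piRNAs in other animals. Of 25 titles named for them, 18 had higher means nearshore and 7 lower. In limma 0 passed and 4 had an unadjusted p under 0.05, and without 1 stray match 0 of 24 passed in the ordinary pooled-variance test. The list's median was 0.18. Without the stray 17 of 24 had higher means, with a median of 0.15, and over these 24 the lean rested on NM3. With NM3 left out as well, 12 had higher and 12 lower means and the median was 0.01, whereas without NF3 it was 0.34. With all animals kept and the 25% dimmest titles left out, 9 had higher and 2 lower means, with a median of 0.83. Whether the lean of these brighter titles rested on NM3 was not tested. Pol Protein, named for a reverse transcriptase polyprotein, had the list's largest difference, 2.34 on the log2 scale (SE 0.92, adjusted p = 0.158). It had 11.84 in NF1, 9.45 in NF3 and 12.96 in NM3, against 7.62 to 10.09 offshore, so NF3 lay inside the offshore range. The titles for CCHC zinc finger and integrase proteins had 1.36 (adjusted p = 0.0932) and 1.64 (adjusted p = 0.169).

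Of 10 titles for silencing chromatin, 0 passed in limma, 2 had an unadjusted p under 0.05 and the median was -0.03. Without 2 stray matches 0 of 8 passed in the ordinary pooled-variance test, and leaving out 1 animal gave medians from -0.20 (without NF1) to 0.14 (without NM3). Histone Deacetylase 11 differed by 1.05 (adjusted p = 0.0839) and Histone Deacetylase Family Protein by -1.24 (adjusted p = 0.102), both on the log2 scale. Similar To Chromobox Homolog 3, for a heterochromatin protein that reads methylated histones, had -0.50 (adjusted p = 0.238).

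Of 19 titles for poly(A) tails and mRNA decay, 12 had lower means nearshore, 2 fell and 0 rose, with a median of -0.31. The median was -0.15 without NF1, -0.17 without OF4, -0.19 without OF2 and -0.20 without OF3. It was -0.30 without NM3, -0.41 without OF1 and -0.46 without NF3. Exosome Component 1, a subunit of the complex that degrades RNA from its 3′ end, fell by 1.25 (SE 0.28, adjusted p = 0.0397). LSM5 Homolog, U6 Small Nuclear RNA Associated, part of a ring that binds U6 and decaying messages, fell by 0.97 (SE 0.23, adjusted p = 0.0439). Without 1 animal, Exosome Component 1 passed only without OF1 and LSM5 Homolog in 0 of 7 fits.

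The last question was which titles followed the Piwi and Boule patterns most closely over the 7 animals, by Pearson r among 3296 titles with 7 values and a name that identifies a protein. Titles were picked by these same values, so they share the pattern of the member by choice. Their site differences are therefore not separate support for it. For Piwi-like 1, 106 titles had r above 0.9 and 56 below -0.9. The most alike were a title for a beta 1,3-galactosyltransferase (r 0.99), REX4, RNA Exonuclease 4 Homolog (0.99), Seryl-tRNA Synthetase 2 (0.98) and Ubiquitin-conjugating Enzyme E2 Variant 2 (0.98). Ring Finger Protein 113A and 2,4-dienoyl CoA Reductase 1, Mitochondrial followed, both at 0.98. Each had its lowest value in NF1, as Piwi-like 1 did, a likeness set by the choice of titles. REX4, named for a nuclear exonuclease, was the one of these 6 that fell, by 1.84 (SE 0.45, adjusted p = 0.0473), and it passed in none of the fits without 1 animal. It had 7.43 in NF1, 9.08 in NF3 and 8.67 in NM3, and 9.82 to 10.82 offshore.

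The titles most opposed to Piwi-like 1 were the plant-named NPR1; Protein Binding (r -0.98), Heat Shock Protein 40, a co-chaperone (-0.98), and the Rieske iron-sulfur subunit of respiratory complex III (-0.97). Heat Shock Protein 40 had 7.74 in NF1, 6.09 in NF3 and 5.98 in NM3, against 4.87 to 5.60 offshore, a log2 fold change of 1.40 (adjusted p = 0.110). The choice of measure changed the list for Piwi-like 1. Of its 6 most alike titles, 3 were also among the 6 highest by Spearman rho and 1 by r with site means removed.

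For Bol, Boule-like, 80 titles had r above 0.9 and 35 below -0.9. The most alike were Membrane-associated Ring Finger 1, a ubiquitin ligase (r 0.99), the title for U2 Small Nuclear RNA Auxiliary Factor 2, which recognises introns in splicing (0.99), and Proteasome Subunit, Alpha Type, 1 (0.99). WW Domain Binding Protein 2, Enolase 3, a glycolytic enzyme, and Lis-interacting Protein followed at 0.99, 0.97 and 0.97. In all 6 NF1 was highest and NF3 second, as in Bol, Boule-like, again set by the choice of titles. WW Domain Binding Protein 2 rose by 1.54 (SE 0.37, adjusted p = 0.0460), with 15.65, 15.33 and 14.42 in NF1, NF3 and NM3, and 13.08 to 13.97 offshore. Lis-interacting Protein rose by 1.79 (SE 0.43, adjusted p = 0.0448). Both passed only without NM3 among the fits that left out 1 animal, at adjusted p of 0.0323 and 0.0283.

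The titles most opposed to Bol, Boule-like were RNA Binding / Translation Initiation Factor (r -0.97), Interferon, Gamma-inducible Protein 30, a lysosomal thiol reductase (-0.97), and a subunit of respiratory complex I (-0.96). None of the 3 passed. Of the 6 titles most alike to Bol, Boule-like, 4 were also among the 6 highest by Spearman rho and 1 by r with site means removed. The lists for Piwi-like 1 and Bol, Boule-like had no title in common.

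**Figure D5:**
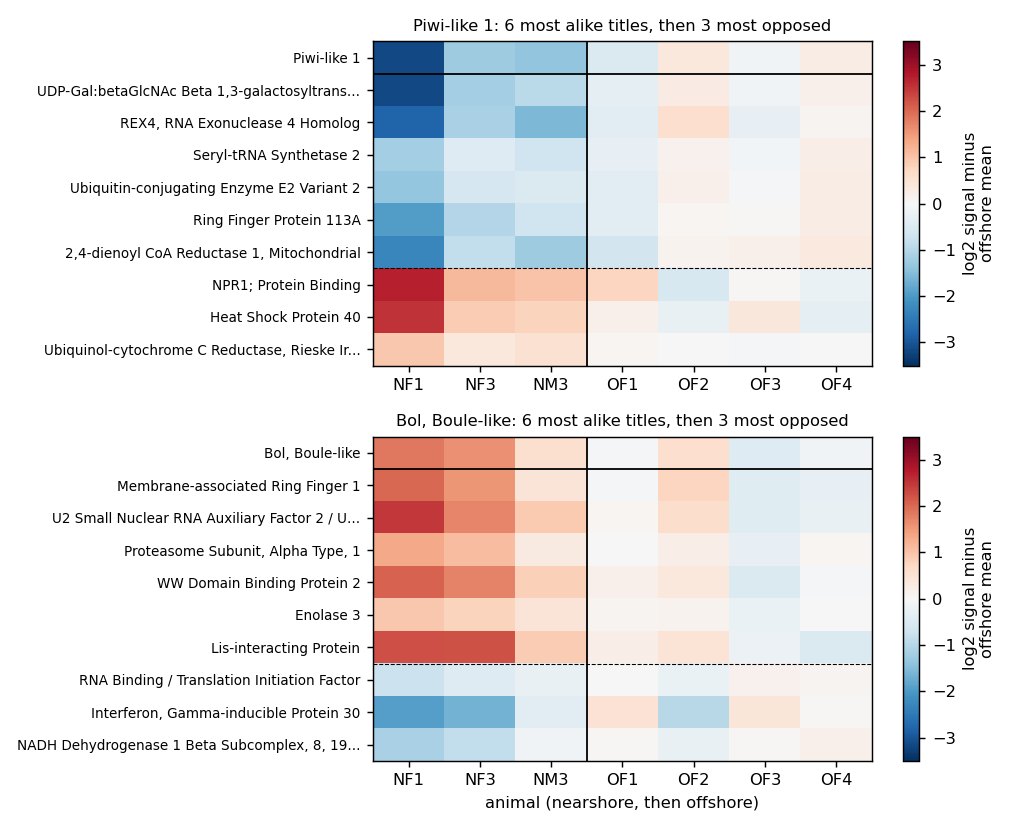
Log2 signal minus the offshore mean in each animal (columns, nearshore left of the line) for Piwi-like 1 and Bol, Boule-like (top row of each panel), their 6 most alike titles and, under the dashed line, the 3 most opposed. Blue is lower and red is higher than the offshore mean. The Piwi panel is darkest in NF1, and the Boule panel is dark in NF1 and NF3 and pale in NM3.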

How the data were processed

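Ovary RNA of 7 conchs was labelled with Cy3, 1 animal per array. The submitters' processing notes name Agilent Feature Extraction. The authors deposited 1 log2 value per gene title and array. The log base was read as 2 from the range, 0.27 to 17.53, and every fold change rests on that. Array normalization and probe condensing were not given in the sources used here. Values were used as deposited, without a filter. Each title was tested with limma 3.58.1 (R 4.3.3; lmFit, eBayes, site as the term), two-sided, with Benjamini-Hochberg adjustment over all 4328 titles, and was called changed at an adjusted p under 0.05. The script was tested on simulated data. Members, lists and rules were chosen with earlier results of these data known. Named titles are the members, each list's changed titles and its 3 smallest p-values, and the 6 most alike and 3 most opposed titles of each member; other titles named were chosen after their values were seen. Strays, matches whose name belongs to another kind of protein, were set after the matched names had been read. No probe sequences were used here. Alternatives were other scalings, priors and tests, a filter on dim titles, a replicate block and leaving out each animal. Group differences of the members were also tested by exact permutation. One title of the meiotic list is not reported here.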

Additional observations from a re-analysis of the deposited data

Results flagged for a closer look

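Among 36 named titles examined for an animal far from the other 3 offshore animals, 2 had one by Dixon's test, about as many as chance gives (1 in 20 groups). In PMS2 Postmeiotic Segregation Increased 2, OF1 stood at 4.48 against 3.75 to 3.88 in the other offshore animals, a ratio of gap to range of 0.833. In Cytoplasmic FMR1 Interacting Protein 2, a stray match of the small RNA list, OF1 stood at 1.81 against 0.92 to 1.04, a ratio of 0.872. For Piwi-like 1 and Bol, Boule-like the ratios were 0.44 and 0.60, below the critical value of the test.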

How the results depend on the processing

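Piwi-like 1 kept a lower and Bol, Boule-like a higher nearshore mean under all 17 alternatives. Piwi-like 1 passed the threshold with array weights (-1.96), with a mean-dependent prior, plain or robust, and without the dimmest titles (-1.92 in these 3). Leaving out 1 animal gave Bol, Boule-like 1.08 to 1.73. The number of changed titles was 34 to 302 without 1 animal, 143 in the ordinary pooled-variance test, and 0 with the number in the animal code as a replicate block, where 669 titles had an unadjusted p under 0.05. With that block the log2 fold changes were -1.81 for Piwi-like 1 and 1.68 for Bol, Boule-like, neither passing. The numbers mark different animals at different sites, and deviations of same-numbered animals had r of 0.01, -0.21 and 0.29, so the numbers were not taken as pairs. Leaving out 1 animal gave 0 to 3 changed titles in the meiotic list, 0 to 3 in the list of translational control and 0 to 1 in the list of poly(A) tails and decay. The last had 1 after cyclic loess. The list of translational control had 1 without stray titles and 3 with the CUG titles. The log2 fold change of Cytoplasmic FMR1 Interacting Protein 2 ran from -0.25 to 0.05 without 1 animal and reversed, to 0.0498, without OF1. Of 576 values of the other 34 named titles, 495 kept direction and call, 70 lost a call, 10 gained one and 1 reversed. Quantile normalization, cyclic loess and median centring left the median of all titles between -0.04 and 0.04.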
